A study of Mus musculus with 6 samples.

Results

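RNA levels of 7 checkpoint genes were followed in mouse LSK cells. These are bone marrow cells that lack lineage markers and carry Sca-1 and Kit on their surface, a fraction that includes blood stem cells and early progenitors. The genes were Pdcd1, its ligand genes Cd274 and Pdcd1lg2, and the inhibitory receptor genes Ctla4, Btla, Lag3 and Havcr2. They are 7 of the 38926 genes in the deposited table, and all 7 were among the 11436 genes that reached a mean of 1 FPKM (fragments scaled to gene length and sequencing depth) and entered the test. The set was chosen by a measured value, because Pdcd1 stood out for its difference between the same libraries in an earlier analysis, and the other 6 genes were added as its partners. The difference of each of the 7 genes is therefore given as a description, with its standard error and without a p-value.

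There were 2 groups of 3 libraries each. Both groups came from wild-type C57BL/6 mice aged 8 to 12 weeks that were injected on 3 consecutive days, one group with DMSO, the solvent, and the other with haloperidol, an antipsychotic and dopamine receptor antagonist. The injected agent also stayed with the cells while they were sorted, so the drug could act both in the animal and on the isolated cells. Crushed femur and tibia were digested with collagenase IV, and the sorted cells went straight into lysis buffer. The labels do not say whether the libraries of a group came from separate mice. The p-values given for other genes therefore measure only how far these samples spread, and that spread may be technical. The labels give no sorting or sequencing date, so the treatment and any batch that ran with it cannot be told apart.

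Each library held 8545232 to 8991074 reads, as recovered from the steps between the FPKM values of a gene, and a gene without a read could still stand at up to 0.334 to 0.351 RPM (reads scaled to the library total), a limit that covers counting error only. Between 11378 and 11529 genes reached 1 FPKM in a library. Over all genes tested, 2807 differed between the groups (24.5%), 1320 of them higher with haloperidol (11.5%) and 1487 lower (13.0%), in limma's test with Benjamini-Hochberg adjustment at 0.05. Without DMSO replicate 2, 1821 genes differed. The median log2 difference of all tested genes was 0.00, with the 5th percentile at -0.49 and the 95th at 0.45. The markers that define the sorted cells were high in all 6 libraries. Kit, the stem cell factor receptor, was at 87.8 ± 7.38 FPKM in DMSO and 81.0 ± 9.78 in haloperidol (mean ± SD, n = 3 each, limma adjusted p = 0.396), and Ly6a, the gene of Sca-1, was at 136 ± 10.2 and 138 ± 10.5 FPKM (adjusted p = 0.861).

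PD-1, the product of Pdcd1, is a surface receptor that restrains activated lymphocytes. When it binds PD-L1 (the product of Cd274) or PD-L2 (Pdcd1lg2), its cytoplasmic tail recruits the phosphatase SHP-2, and to a lesser degree SHP-1, which remove phosphates from antigen receptor and costimulatory signalling proteins. CTLA-4 competes with the costimulatory receptor CD28 for its ligands CD80 and CD86, BTLA binds HVEM (Tnfrsf14), LAG-3 binds MHC class II molecules, and TIM-3 (Havcr2) binds several ligands that include galectin-9 (Lgals9). These receptors are best known from activated and exhausted T cells, and PD-1 has also been used to mark precursors of innate lymphoid cells in mouse bone marrow.

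The promoters of Pdcd1 and Ctla4 are shown because these genes had the largest differences of the 7. Both lie on chromosome 1, Pdcd1 on the minus strand at 94038305 to 94052553 and Ctla4 on the plus strand at 60887000 to 60915832 (GRCm38, GENCODE M21). The RefSeq promoter windows (build GRCm38.p6) run from 250 bases before to 50 after each gene's RefSeq start, at chr1:94052504-94052803 on the minus strand for Pdcd1 and chr1:60908775-60909074 on the plus strand for Ctla4. The Ctla4 window lies inside the GENCODE gene given above, since its RefSeq start is downstream of the GENCODE one. Capitals mark matches on either strand to 5 motifs, which were chosen with these sequences in view: the core of NFAT sites (GGAAA), the AP-1 site (TGANTCA), a glucocorticoid receptor half-site (AGAACA), the GC box (GGGCGG) and the TATA box (TATAAA).
Pdcd1: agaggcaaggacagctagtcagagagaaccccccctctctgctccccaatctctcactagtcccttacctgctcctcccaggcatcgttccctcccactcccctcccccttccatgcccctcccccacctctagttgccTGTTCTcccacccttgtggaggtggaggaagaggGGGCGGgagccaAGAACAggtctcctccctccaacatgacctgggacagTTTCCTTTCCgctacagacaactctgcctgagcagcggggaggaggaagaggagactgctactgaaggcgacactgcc
Ctla4: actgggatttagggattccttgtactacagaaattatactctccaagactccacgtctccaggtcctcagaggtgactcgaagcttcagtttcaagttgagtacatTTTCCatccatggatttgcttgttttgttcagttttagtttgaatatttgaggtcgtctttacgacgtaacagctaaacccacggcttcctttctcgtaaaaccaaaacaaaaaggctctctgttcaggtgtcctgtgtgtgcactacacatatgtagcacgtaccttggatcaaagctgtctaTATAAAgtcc
The Pdcd1 window held 2 NFAT cores, which lie next to each other at 28 and 23 bases before the start as TTTCCTTTCC, 2 glucocorticoid half-sites at 111 and 65 bases before it, and 1 GC box 77 bases before it. The Ctla4 window held 1 NFAT core, 144 bases before its RefSeq start, and 1 TATA box, 40 bases after it. Short motifs of this kind are common. An NFAT core was found in 61.3% of the 32851 promoters in the table, a GC box in 35.7%, a glucocorticoid half-site in 19.0%, a TATA box in 13.6% and an AP-1 site in 7.81%. A promoter was listed for 6 of the 7 genes, all but Lag3. The glucocorticoid half-site was present once each in the Pdcd1lg2 and Btla windows, and the AP-1 site was present only in that of Havcr2 among these 6. A match describes the letters of the window, not a bound site, and binding was not measured.

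Pdcd1 was far higher in all 3 haloperidol libraries than in any DMSO library. Its level was 15.6, 19.3 and 16.4 FPKM in DMSO replicates 1, 2 and 3, and 122, 108 and 197 FPKM in haloperidol replicates 1, 2 and 3. These values rest on 268, 323 and 286 reads in DMSO and on 2016, 1849 and 3379 reads in haloperidol. The groups did not overlap, and haloperidol replicate 3 stood well above the other haloperidol libraries. The means were 17.1 ± 1.94 FPKM in DMSO and 142 ± 47.9 in haloperidol (SD, n = 3 each), which is 8.30-fold higher with haloperidol, and the difference on the log2(FPKM + 1) scale was 2.94 (SE 0.19). Among all genes tested, 1 had a larger positive difference. The receptor went from a middling transcript, with 63.6% of the tested genes below it in DMSO, to one of the abundant ones, with 95.7% of them below it in haloperidol. Its coefficient of variation was 11.3% over the DMSO libraries and 33.7% over the haloperidol libraries. Leaving out each library in turn gave log2 differences of 2.68 to 3.11. In a bulk sample such as this, more cells that carry a transcript and more RNA per cell cannot be told apart.

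**Figure D1:**
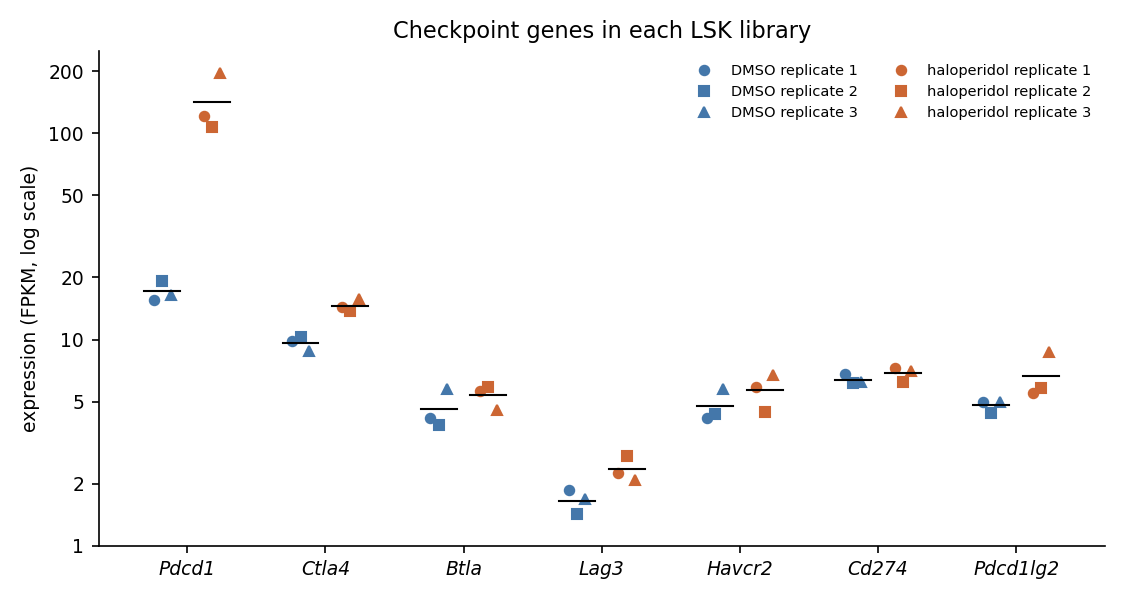
Level of each of the 7 checkpoint genes (FPKM, log axis) in the 3 DMSO libraries (blue) and the 3 haloperidol libraries (orange), with the replicate number as the symbol and the group mean as a bar. Pdcd1 lies at 15.6 to 19.3 FPKM in DMSO and 108 to 197 FPKM in haloperidol, while the other 6 genes stay below 20 FPKM in every library.

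Ctla4, the gene of the receptor that competes with CD28, showed the next largest difference. Its level was 9.82, 10.3 and 8.80 FPKM in DMSO replicates 1 to 3 and 14.4, 13.8 and 15.7 FPKM in haloperidol replicates 1 to 3, from 185 to 325 reads a library. The groups did not overlap, and the libraries of each group lay close together. The means were 9.63 ± 0.754 and 14.6 ± 0.95 FPKM (SD, n = 3 each), 1.52-fold higher with haloperidol, with a log2 difference of 0.55 (SE 0.08). In all, 357 tested genes had a larger positive difference. A processed pseudogene, Rpl18-ps1, lies within the Ctla4 gene but shares none of its exon bases.

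Lag3, the receptor for MHC class II molecules, was the lowest of the 7 genes in every library (chromosome 6, 124904361 to 124911705). It was at 1.86, 1.42 and 1.68 FPKM in the DMSO libraries and at 2.26, 2.72 and 2.08 FPKM in the haloperidol libraries. All 3 haloperidol values were above all 3 DMSO values, at means of 1.65 ± 0.222 and 2.35 ± 0.332 FPKM (SD, n = 3 each) and a log2 difference of 0.34 (SE 0.13). Few reads stand behind these values. The counts were 35, 26 and 32 reads in DMSO and 41, 51 and 39 reads in haloperidol, and the exact 95% Poisson intervals of the lowest and the highest count, 17.0 to 38.1 and 38.0 to 67.1, meet.

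The groups overlapped for the other 2 receptors. Btla, whose product binds HVEM, was at 4.17, 3.85 and 5.75 FPKM in DMSO and 5.60, 5.91 and 4.55 FPKM in haloperidol (chromosome 16, 45224315 to 45257670). Havcr2, which encodes TIM-3, was at 4.16, 4.36 and 5.75 FPKM in DMSO and 5.89, 4.46 and 6.72 FPKM in haloperidol (chromosome 11, 46454935 to 46481255). For both genes DMSO replicate 3 was higher than 1 of the haloperidol libraries or more. The log2 differences were 0.19 (SE 0.14) for Btla and 0.21 (SE 0.15) for Havcr2, each smaller than 2 standard errors, from 109 to 171 reads a library for Btla and 101 to 163 for Havcr2.

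The PD-1 ligand genes lie next to each other on chromosome 19, and neither came near the difference of their receptor. Cd274, which encodes PD-L1, was at 6.81, 6.17 and 6.21 FPKM in DMSO and 7.28, 6.21 and 7.07 FPKM in haloperidol (29367455 to 29388095), from 194 to 228 reads a library. The groups overlapped, and the log2 difference was 0.08 (SE 0.08) at means of 6.40 ± 0.359 and 6.85 ± 0.568 FPKM (SD, n = 3 each). An antisense gene, AC119228.1, shares 511 of the 3622 exon bases of Cd274, and since the libraries keep no strand, reads from the shared stretch cannot be told apart.

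Pdcd1lg2, which encodes PD-L2, was at 4.98, 4.41 and 4.99 FPKM in DMSO and 5.51, 5.81 and 8.67 FPKM in haloperidol (29410919 to 29471161), from 63 to 127 reads a library. The groups did not overlap, but the margin between them was narrow and the mean of the haloperidol group leaned on replicate 3. Its means were 4.79 ± 0.331 and 6.66 ± 1.74 FPKM (SD, n = 3 each), with a log2 difference of 0.38 (SE 0.15), or 0.20 without haloperidol replicate 3. The antisense gene A930007I19Rik overlaps the Pdcd1lg2 gene but shares none of its exon bases.

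**Figure D2:**
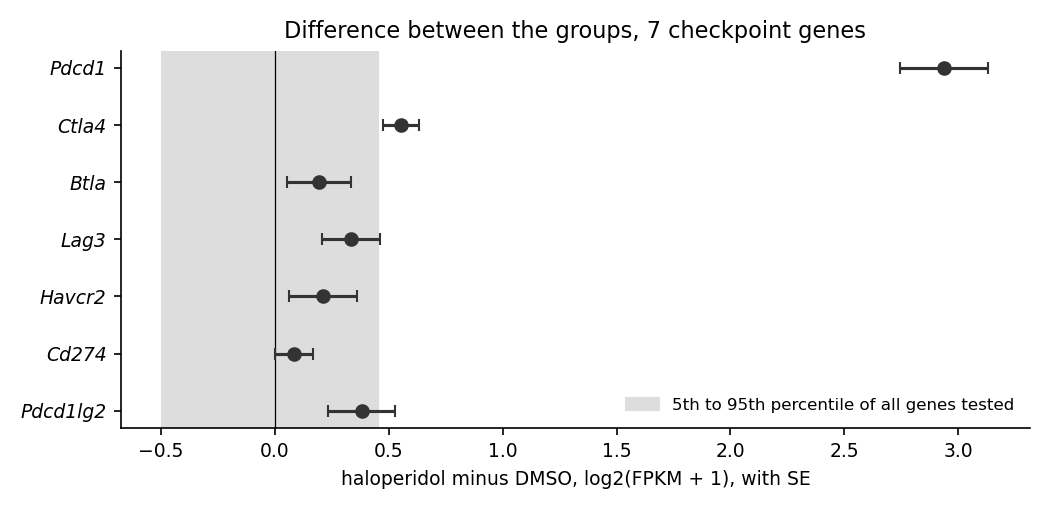
Difference between the groups for the 7 checkpoint genes (haloperidol minus DMSO on the log2(FPKM + 1) scale, points with the standard error of the fit as bars), with the range from the 5th to the 95th percentile of all 11436 tested genes shaded (-0.49 to 0.45). Pdcd1 lies at 2.94 and Ctla4 at 0.55, both right of the shaded range, and the other 5 genes lie within it.

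All 7 genes had a positive difference, with a median of 0.34 against 0.00 over all genes tested, of which 5769 were positive. For 4 of the 7, Pdcd1, Ctla4, Lag3 and Pdcd1lg2, every haloperidol library was above every DMSO library, and for 0 of the 7 was it the reverse. Over all genes tested, the haloperidol libraries were all above the DMSO libraries for 2404 (21.0%). Because Pdcd1 was picked for this contrast, nothing is read from these counts. In DMSO the order of levels on the FPKM scale, which is per gene length, was Pdcd1, Ctla4, Cd274, then Pdcd1lg2, Havcr2 and Btla, whose libraries overlapped, and Lag3. In haloperidol Pdcd1 and Ctla4 again led and Lag3 was last. Between them the mean levels ran Cd274, Pdcd1lg2, Havcr2 and Btla, and the libraries of each gene overlapped those of the next.

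The 7 genes together summed to 48.9 ± 1.34 FPKM in DMSO and 184 ± 50.8 FPKM in haloperidol (SD, n = 3 each). Pdcd1 made up 34.9% ± 3.31 of that sum in DMSO and 76.6% ± 4.28 in haloperidol. The other 6 genes summed to 30.5 to 33.2 FPKM in the DMSO libraries and 38.9 to 44.7 FPKM in the haloperidol libraries. Within the haloperidol group the genes did not follow one library order. Replicate 3 had the highest Pdcd1, Ctla4, Pdcd1lg2 and Havcr2 and the lowest Btla and Lag3.

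Around the 7 genes, 5 lists were read: other inhibitory receptors, ligands of such receptors and the B7 family, costimulatory receptors, PD-1 proximal signalling, and transcription factors reported to act on Pdcd1. They hold 90 genes that are not among the 7. Of these, 66 were tested, and 7 rose and 26 fell at a limma adjusted p below 0.05, beside the 11.5% and 13.0% of all genes given above. The median log2 difference over the 66 genes was -0.16.

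Of 24 other inhibitory receptors, 16 were tested, of which 2 rose and 7 fell, beside 11.5% and 13.0% of all genes. The median log2 difference of the 16 was -0.20. Clec12a, a C-type lectin receptor of myeloid cells, fell from 11.0 ± 0.900 to 4.70 ± 0.310 FPKM (log2 difference -1.08, limma adjusted p = 1.38e-04). Cd200r1, the receptor for CD200, fell from 8.64 ± 0.610 to 4.67 ± 0.491 FPKM (adjusted p = 8.69e-04). Vsir, the gene of the B7-like receptor VISTA, is listed in the table under its older name 4632428N05Rik and fell from 5.64 ± 0.237 to 3.12 ± 0.385 FPKM (adjusted p = 0.00186). The genes with the highest DMSO levels in the list fell as well, Cd72, a B cell co-receptor, from 25.9 to 20.2 FPKM (adjusted p = 0.00247) and Cd96, which binds the poliovirus receptor, from 22.9 to 13.3 FPKM (adjusted p = 0.00660). Fcgr2b, the inhibitory receptor for IgG, rose from 3.07 ± 0.254 to 5.74 ± 0.602 FPKM (log2 difference 0.73, adjusted p = 0.00168). The other receptor that rose, named after its values were seen, was Lilrb4, from 2.44 to 4.42 FPKM (adjusted p = 0.00352), a gene of a family with closely similar copies whose reads may be split between them. The other receptors that fell, also named after their values were seen, were Ceacam1 and Sirpa. Ceacam1 went from 3.21 to 2.02 FPKM (limma adjusted p = 0.0155), a call lost without DMSO replicate 2. Sirpa went from 9.85 to 7.74 FPKM (adjusted p = 0.0261), a call lost without DMSO replicate 1 or 2 or haloperidol replicate 2 or 3. Tigit and Klrg1 had 0 reads in all 6 libraries.

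Of 16 genes for ligands of such receptors and for the B7 family, 12 were tested, with a median log2 difference of -0.07. Of the 12, 2 rose and 3 fell, beside 11.5% and 13.0% of all genes. Without haloperidol replicate 1, 1 fell. Lgals9, which encodes the TIM-3 ligand galectin-9, was abundant and rose from 308 ± 20.0 to 387 ± 21.2 FPKM (log2 difference 0.33, limma adjusted p = 0.00735). Cd86, which encodes a ligand shared by CTLA-4 and CD28, fell from 5.58 ± 0.122 to 3.36 ± 0.413 FPKM (log2 difference -0.60, adjusted p = 0.00340), and Cd80, the gene of their other ligand, was below the filter, at 13 to 15 reads in each DMSO library and 2 to 8 reads in each haloperidol library. Tnfrsf14, the BTLA ligand HVEM, was low in both groups, at 1.49 ± 0.459 and 1.34 ± 0.271 FPKM (adjusted p = 0.770). Cd276, which encodes the B7 family protein B7-H3, fell from 1.56 to 0.538 FPKM (adjusted p = 0.0166), a call that was lost without haloperidol replicate 1 (adjusted p = 0.0518). Cd48, the ligand of CD244, fell from 191 to 163 FPKM (adjusted p = 0.0353), a call lost without any 1 of DMSO replicates 2 and 3 and haloperidol replicates 1, 2 and 3, at adjusted p-values of 0.0538 to 0.119. Cd47, the abundant ligand of SIRP-alpha, was at 221 and 203 FPKM and missed the threshold (adjusted p = 0.0727). Pvr, the ligand of CD96 and TIGIT, named after its values were seen, was the other gene that rose, from 4.28 to 5.55 FPKM (adjusted p = 0.0474), a call lost when any library but DMSO replicate 3 was left out.

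Of 10 costimulatory receptors, 4 were tested, 0 rose and 2 fell, beside 11.5% and 13.0% of all genes. Cd27, a TNF receptor family member expressed on early progenitors as well as lymphocytes, fell from 114 ± 0.596 to 78.6 ± 4.20 FPKM (limma adjusted p = 3.31e-04). Tnfrsf18, which encodes GITR, fell from 27.4 ± 2.49 to 22.0 ± 1.31 FPKM (adjusted p = 0.025), a call lost without DMSO replicate 2 or 3 or haloperidol replicate 1 or 2. The other 2 tested genes, named after their values were seen, did not pass the test. Cd28, whose ligands CTLA-4 competes for, was at 2.04 and 1.83 FPKM (adjusted p = 0.681), and Icos at 3.17 and 3.74 FPKM (adjusted p = 0.341).

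Of 17 genes of PD-1 proximal signalling, 15 were tested, and 0 rose and 6 fell, beside 11.5% and 13.0% of all genes. The median log2 difference of the 15 was -0.18. Ptpn6, which encodes SHP-1, fell from 163 ± 8.51 to 116 ± 3.03 FPKM (log2 difference -0.49, limma adjusted p = 5.47e-04). Ptpn11, which encodes SHP-2, the main partner of PD-1, was at 8.36 ± 1.30 and 7.52 ± 0.548 FPKM and did not pass the test (adjusted p = 0.415). Lck, the kinase that phosphorylates T cell receptor chains, fell from 25.8 to 17.7 FPKM (adjusted p = 6.75e-04). Vav1, a guanine nucleotide exchange factor, fell from 90.6 to 68.3 FPKM (adjusted p = 0.00107), and Pik3cd, a catalytic subunit of PI3 kinase, from 23.3 to 16.1 FPKM (adjusted p = 0.00564). The other genes that fell, named after their values were seen, were Fyn and Grb2. Fyn went from 28.4 to 22.8 FPKM (limma adjusted p = 0.00738) and Grb2 from 56.5 to 49.9 FPKM (0.0345). The call of Grb2 was lost when any library but haloperidol replicate 3 was left out.

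Of 23 transcription factors reported to act on Pdcd1 in lymphocytes, 19 were tested, with a median log2 difference of -0.20. Of the 19, 3 rose and 8 fell, beside 11.5% and 13.0% of all genes. Without any 1 of DMSO replicates 1, 2 and 3, 5 fell. Bcl6, a transcriptional repressor active in germinal centre B cells and follicular helper T cells, rose from 1.96 ± 0.406 to 5.17 ± 0.208 FPKM (log2 difference 1.07, limma adjusted p = 6.39e-04). The other factors that rose, named after their values were seen, were Foxo1, from 6.60 to 9.44 FPKM (adjusted p = 0.00733), and Stat3, from 36.2 to 43.7 FPKM (adjusted p = 0.0156), a call lost without DMSO replicate 3 (adjusted p = 0.05003). Satb1, a chromatin organiser, fell from 19.8 to 10.5 FPKM (adjusted p = 2.08e-04). The nuclear receptor gene Nr4a2 fell from 441 ± 16.0 to 296 ± 19.2 FPKM (adjusted p = 4.05e-04), and Jun, a subunit of AP-1, from 255 ± 7.07 to 169 ± 23.1 FPKM (adjusted p = 0.00258). The most abundant factors were Nr4a1, which fell from 2736 ± 158 to 2328 ± 160 FPKM (adjusted p = 0.0361), and Fos, at 1044 ± 40.3 and 1077 ± 77.6 FPKM (adjusted p = 0.659). The call of Nr4a1 was lost when any library but haloperidol replicate 1 was left out (adjusted p = 0.0507 to 0.121). The other factors that fell, also named after their values were seen, were Nfatc1, Nr4a3, Tox and Stat4. Nfatc1 fell from 18.1 to 14.1 FPKM (limma adjusted p = 0.00767) and Nr4a3 from 28.8 to 17.4 FPKM (0.00660). Tox went from 3.31 to 2.12 FPKM (adjusted p = 0.0318) and Stat4 from 46.8 to 40.5 FPKM (0.0216). The calls of Tox and Stat4 were lost when any 1 DMSO library was left out. That of Tox was also lost without haloperidol replicate 3, and that of Stat4 without haloperidol replicate 2. The part of any of these factors in the Pdcd1 difference was not tested.

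**Figure D3:**
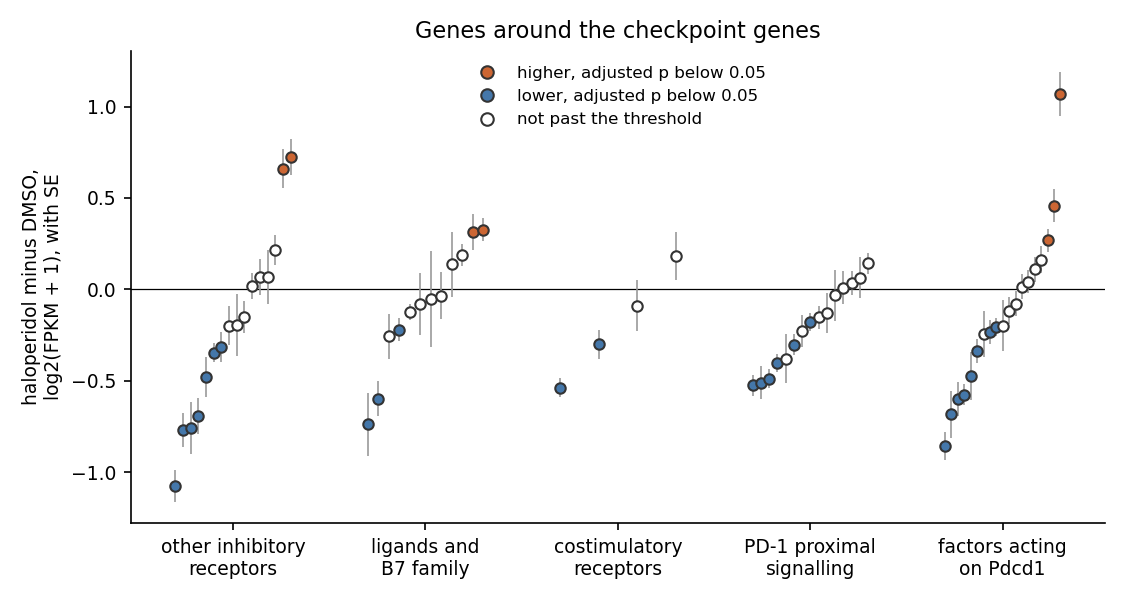
Difference between the groups (haloperidol minus DMSO on the log2(FPKM + 1) scale, with the standard error as a bar) for the 66 tested genes of 5 lists around the checkpoint genes, each point 1 gene, ordered within its list. In all, 7 genes rose (orange) and 26 fell (blue) at a limma adjusted p below 0.05, beside 11.5% and 13.0% of all genes tested. There were 0 rises among costimulatory receptors and PD-1 proximal signalling.

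Markers of other marrow cells that can carry PD-1 were read beside Pdcd1. The genes that define T cells were at or near 0 in both groups: Cd3d had 0 to 4 reads, Cd3e 0 to 1 and Cd3g 0 to 3 in a library, where Pdcd1 had 268 to 3379. The 18 markers of T and NK cells summed to 326 to 345 FPKM in the DMSO libraries and 286 to 340 FPKM in the haloperidol libraries, nearly all of it Nkg7, at 318 and 296 FPKM (limma adjusted p = 0.242). Of the 6 tested, 0 rose and 1 fell, beside 11.5% and 13.0% of all genes. The latter was Cd5, from 1.56 to 0.641 FPKM (adjusted p = 0.0127). Prf1, named after its values were seen, missed the threshold (limma adjusted p = 0.0652). It had 14, 25 and 24 reads in DMSO and 33, 31 and 58 in haloperidol. Below the filter, Klrb1c had 16, 18 and 14 reads in DMSO and 25, 22 and 19 in haloperidol. Ncr1, also below it, had 1, 2 and 1 reads in DMSO and 0 in each haloperidol library. Gzmb, the cytotoxic granule protease granzyme B, was at 57 to 85 reads in 5 libraries and at 182 reads in haloperidol replicate 3, the library with the highest Pdcd1. Its part in the level of Pdcd1 in that library was not tested.

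The 12 markers of innate lymphoid cells and their precursors summed to 63.5 to 65.8 FPKM in DMSO and 73.7 to 88.6 FPKM in haloperidol. Itgb7 was the largest part of this sum, and most of the increase lay in Itgb7 and Id2. Among the 12, only these genes, Nfil3 and Zbtb16 had a higher mean with haloperidol, and the rest had a lower one. Within the haloperidol group the sum was highest in replicate 3, the library with the highest Pdcd1, as were the sums of the T and NK cell, B cell, monocyte and neutrophil lists, while the sum of the LSK list was highest in replicate 1. Of 8 tested, 2 rose and 1 fell, beside 11.5% and 13.0% of all genes. Id2, an inhibitor of E proteins, rose from 10.4 to 15.1 FPKM (limma adjusted p = 0.00672), and Itgb7, an integrin subunit, from 31.1 to 40.6 FPKM (adjusted p = 0.0113), while Tcf7, a factor of early lymphoid development, fell from 2.56 to 0.963 FPKM (adjusted p = 0.00743). The defining genes did not share a direction. Zbtb16, which encodes PLZF, had 24, 22 and 36 reads in DMSO and 25, 38 and 57 in haloperidol, with overlapping groups. Gata3 had 108 to 121 reads in DMSO and 96 to 104 in haloperidol, and Il7r, the IL-7 receptor, fell from 1.90 to 0.618 FPKM (adjusted p = 0.0180), a call lost without DMSO replicate 1 or 2 or haloperidol replicate 2 or 3 (adjusted p = 0.0518 to 0.0666). The part of such cells in the Pdcd1 difference was not tested.

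Summed levels of the B cell markers were lower with haloperidol, those of monocytes, macrophages and dendritic cells higher, and those of neutrophils overlapped. The 8 B cell markers summed to 34.8 to 36.4 FPKM in DMSO and 22.5 to 25.0 FPKM in haloperidol, nearly all of it Cd79b. Of 2 tested, 0 rose and 2 fell, beside 11.5% and 13.0% of all genes. Cd79b fell from 32.2 to 22.8 FPKM (limma adjusted p = 0.00108) and Cd79a from 2.22 to 0.752 FPKM (adjusted p = 0.00700). The B cell gene Ms4a1 had 0 to 12 reads in a library. The 12 markers of monocytes, macrophages and dendritic cells summed to 99.9 to 115 FPKM in DMSO and 132 to 164 FPKM in haloperidol. Of 4 tested, 1 rose and 0 fell, beside 11.5% and 13.0% of all genes. The gene that rose, and that held most of the increase, was Cd68, a lysosomal membrane protein, from 16.2 to 44.9 FPKM (adjusted p = 3.21e-05). Cd14, the most abundant of the 12, was at 80.5 and 88.5 FPKM (adjusted p = 0.357). The other tested genes, Csf1r (adjusted p = 0.195) and Ly6c2 (0.974), did not pass the test either. The defining genes of macrophages and dendritic cells were low, Itgax at 19 to 23 reads in DMSO and 33 to 42 in haloperidol, and Adgre1 (listed as Emr1) at 4 to 12 reads. The 8 neutrophil markers summed to 163 to 275 FPKM in DMSO and 169 to 298 FPKM in haloperidol, with Ly6g at 0 to 6 reads. Of 7 tested, 1 rose and 0 fell, beside 11.5% and 13.0% of all genes. The gene that rose was Cxcr2, at 1.22 and 2.14 FPKM (limma adjusted p = 0.0210). Its call was lost without DMSO replicate 2 or haloperidol replicate 1 or 3 (adjusted p = 0.0615 to 0.0713). The 9 LSK markers summed to 1199 to 1241 FPKM in DMSO and 1068 to 1098 FPKM in haloperidol. Of the 9 tested, 5 fell and 1 rose at a limma adjusted p below 0.05, beside 13.0% and 11.5% of all genes. Among those that fell were the stem cell factors Hlf, from 30.6 to 14.5 FPKM, and Meis1, from 27.7 to 18.8 FPKM. The surface proteins Procr and Cd34 fell as well, and the call of Cd34 was lost without DMSO replicate 2 (adjusted p = 0.0660). The 1 that rose was Flt3, a receptor of early progenitors, from 103 to 116 FPKM (adjusted p = 0.0484), a call lost when any 1 library was left out (adjusted p = 0.0729 to 0.154) and after upper quartile or common sum scaling. The part of these shifts in the Pdcd1 difference was not tested.

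**Figure D4:**
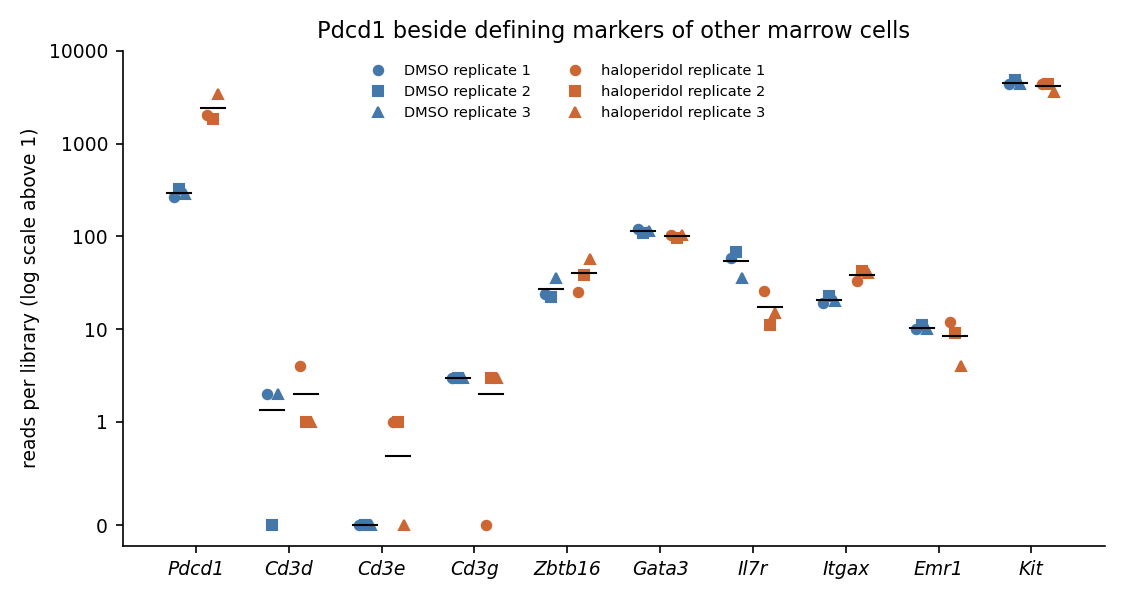
Reads per library (log axis above 1) of Pdcd1 and of genes that define other marrow cells, in the 3 DMSO libraries (blue) and the 3 haloperidol libraries (orange), with group means as bars. The T cell genes Cd3d, Cd3e and Cd3g have at most 4 reads in any library, while Pdcd1 has 268 to 323 reads in DMSO and 1849 to 3379 in haloperidol, below Kit in every library.

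The genes beside Pdcd1 on chromosome 1 were nearly silent. No annotated gene overlaps it. Neu4, a sialidase gene 9971 bases away, had 0 reads in the 3 DMSO libraries and 1, 0 and 2 reads in haloperidol replicates 1, 2 and 3. Gal3st2c, a sulfotransferase gene 21158 bases away that is listed as Gm6086, had 1, 2 and 2 reads in DMSO and 6, 10 and 18 in haloperidol. Its groups did not overlap, but it was below the filter and has near-identical copies close by, so its reads are uncertain. Gal3st2b, one of these copies, listed as Gm9994, had 0 reads in all 6 libraries.

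The genes whose log2(FPKM + 1) followed that of Pdcd1 most closely over the 6 libraries were Otud4 (Pearson r = 0.999), Ubox5 (0.998), Ucp2 (0.997), Foxn3 (0.996) and Gusb (0.996). This measure includes the group difference, and 371 of the 10038 genes compared (3.70%) reached an r of 0.95. Ucp2, a mitochondrial carrier, shows what the likeness consists of, at 125, 125 and 124 FPKM in DMSO and 191, 188 and 223 FPKM in haloperidol, with the same library highest. Ctla4 was in place 85, with r = 0.98. When the group means were taken out, the closest genes among those that varied within groups included Ecm1 (r = 0.986), Il1rn (0.982), Ighv1-62-1 (0.976) and Ighv1-83 (0.973). Il1rn, which encodes the IL-1 receptor antagonist, was at 0.280, 0.538 and 0.380 FPKM in DMSO and 1.30, 1.16 and 4.45 FPKM in haloperidol, again highest in replicate 3. The immunoglobulin segments share reads with similar segments and are uncertain. These values describe 6 libraries and carry no test.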

How the data were processed

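RNA of 6 libraries of sorted LSK cells was sequenced from SMART-Seq v4 and Nextera XT libraries, per the labels' protocols, kits that keep no strand. Per the submitters' processing notes the build was mm10, and the tools were TopHat2 2.1.1, HTSeq 0.6.1, bcl2fastq 2.19.1.403 and DESeq2 1.18.1. Which annotation release and which counting options were used is not given in the sources used here. FPKM were deposited by the authors for 38926 genes, 20633 of them above 0, with 0 columns of other samples.

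Within a library, a gene's FPKM move in steps of 1 read. Reads recovered from these steps were whole, within 0.001 reads, for 100% of genes above 0, and a common factor was restored for 799 genes. They give depth, read numbers and 1 added alternative. Genes with a mean of at least 1 FPKM were tested on log2(FPKM + 1), a scale that understates the change of low genes, with limma 3.58.1 in R 4.3.3 (two-sided, without covariates, prior variance with a trend, Benjamini-Hochberg over 11436 genes, threshold 0.05). The method was tested on simulated data. The 7 genes and all lists were chosen with earlier results of these data known. Genes named from a list are up to 4 with the smallest p among those called and the 2 with the highest DMSO mean, beside partners and defining markers named whatever their value. A few genes that this rule would name are not reported here. Gene positions are from GENCODE M21. Other settings tried were the pseudocount, the filter, 3 scalings, a robust prior, a replicate block, each library left out, and recovered reads with limma's voom weights.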

Additional observations from a re-analysis of the deposited data

How the results depend on the processing

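None of the 7 checkpoint genes changed sign under any of 15 other settings. All settings reuse the same 6 libraries, and no filter, the robust prior and the replicate block leave these differences as they are. A kept sign is therefore little support for Cd274, Btla and Havcr2, whose groups overlapped. Pdcd1 ranged from 2.68 to 3.11, Ctla4 from 0.50 to 0.60, Lag3 from 0.26 to 0.50, Pdcd1lg2 from 0.20 to 0.49, Havcr2 from 0.10 to 0.35, Btla from 0.10 to 0.34 and Cd274 from 0.05 to 0.15 on the log2 scale. Leaving out 1 library lowered the number of genes called from 2807 to between 1821 (without DMSO replicate 2) and 2148, with fewer samples, and no filter gave 1954, with more genes tested. Limma-voom on recovered reads, chosen after seeing the data, gave 3296. Rescaling to a common sum gave 2679, of which 1114 were higher. Fitting the replicate number as a block gave 2552 and ended the calls of Cd48 (adjusted p = 0.0566), Tox (0.0510) and the marker Flt3 (0.0576). Whether libraries of the same number belong together is not known. Their deviations from the group means correlated at 0.0095, 0.055 and 0.020 for numbers 1, 2 and 3. Of 6 libraries, 2 correlated best with a library of their own number. These values show no strong shared deviation, but they cannot show that the samples were unpaired. Of the 33 calls in the 5 lists, 24 to 28 were also made when 1 library was left out, 27 with no filter and 31 with the block. Without a filter the calls of Cd48 (adjusted p = 0.0890), Tnfrsf18 (0.0647) and Nr4a1 (0.211) were lost. Cd47 was called after rescaling to a common sum (0.0366), quantile normalization (0.0300) and voom (0.0434). Of the 2 rises among ligands, 1 was left with no filter, a common sum, or any 1 of 5 libraries left out, all but DMSO replicate 3. The planned edgeR and DESeq2 fits to the recovered reads were not run, and voom stands in for them. Lag3, at 26 to 51 reads a library, is the gene most limited by depth.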
